A study of Mus musculus with 21 samples.

Results

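Macrophages that had received tumour necrosis factor (TNF) for 6 h were set against untreated macrophages, group TNF_6h against group Ctrl_0h. The members are the 6 libraries whose titles carry these group names, 3 in each group, of 21 libraries in the series. Both groups were bone-marrow-derived macrophages of wild-type C57BL/6 mice aged 8-10 weeks, that is, marrow cells that the growth factor M-CSF turns into macrophages in a dish. TNF_6h received TNF at 10 ng/ml and was sampled at 6 h, and Ctrl_0h received no cytokine and was sampled at 0 h. No untreated group at 6 h is among the 21 libraries, so TNF and 6 h more in culture cannot be told apart in this comparison. Whether replicates are separate mice or dishes is not in the labels, so p values measure the spread between these samples, which may be technical. The other groups, with IL-4 and IL-13 (called IL here), enter where a second comparison is needed: IL_TNF_6h and IL_6h received IL with and without TNF for 6 h, and TNF_24h received TNF for 24 h. The cytokine dose was 10 ng/ml in these groups too.

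TNF is a cytokine made by activated macrophages, and it acts back on them through its receptors Tnfrsf1a and Tnfrsf1b. The receptors recruit adaptors, ubiquitin ligases and the IkB kinase, which frees transcription factors of the NF-kB family from their IkB inhibitors. Among the known targets of NF-kB are chemokine genes, survival genes and the genes of the inhibitors themselves. In mouse macrophages TNF is also known to act through a low output of interferon beta, which switches on interferon-stimulated genes.

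The 6 libraries held between 28.1 and 38.8 M counts in genes (M, 1e6), and 15581 of 47069 gene identifiers had enough counts to be tested. Levels are CPM, counts per 1e6 of a library total adjusted by TMM scaling (explained below), so they are not plain shares of a library. They are not per length and so are not compared between genes. Changes are log2 fold changes of TNF_6h over Ctrl_0h ± standard error (SE) from edgeR (quasi-likelihood test), and called means an adjusted p under 0.05 (Benjamini-Hochberg, all genes tested). Rose and fell are used of called genes, and sizes after rose by or fell by are on the log2 scale. Replicate 2 of Ctrl_0h stood apart: it had counts in 27761 genes, against 16996 to 20631 in the other 20 libraries of the series. Of these genes, 4550 had counts in no other library of the series. Of the genes tested, 1117 reached 3 times the level of both other Ctrl_0h libraries in it, and 472 of these were called and lowered in TNF_6h. Every result was therefore also computed without it. Among the libraries of TNF_6h, replicate 3 had the most genes with a count, 20631.

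All 10 macrophage markers were above 1 CPM in all 6 libraries, and their sum lay between 46276 and 49397 CPM in TNF_6h, against 24280.3 to 29205 CPM in Ctrl_0h. Lyz2 held 31145, 32148 and 29641 CPM of the sum in TNF_6h and 19122, 16477 and 18372 CPM in Ctrl_0h. Of the 10 markers 8 rose and 0 fell, but Itgam was at 119, 133 and 118 CPM in TNF_6h, against 183, 144 and 172 CPM in Ctrl_0h. In the T and NK cell list the sum was 28.2 to 31.4 CPM in TNF_6h and 5.37 to 7.44 CPM in Ctrl_0h, and 30.4, 27.2 and 29.6 CPM of it in TNF_6h was Cd4, with Cd3d, Cd3g and Trac at 0 counts there. In the neutrophil list Csf3r, a receptor that macrophages also make, held 164, 151 and 151 CPM of the TNF_6h sum of 152 to 166 CPM, with Ly6g, Mpo and S100a9 at 0 counts there. Camp, a granule protein of that list, was at 1.51, 1.25 and 0.722 CPM in TNF_6h and 0, 0.135 and 0.163 CPM in Ctrl_0h. Of the 4 neutrophil markers tested 2 rose and 1 fell. The one that fell, Cxcr2, had 0 counts in TNF_6h and 10 in Ctrl_0h. It lost its call without replicate 2 of Ctrl_0h (edgeR adjusted p = 0.0827). The part of such cells in the results was not tested. The lists of islet, neuron, epithelial and erythroid markers summed to 36.4, 20.5, 19.0 and 16.4 CPM in replicate 2 of Ctrl_0h and to at most 8.42, 1.76, 2.20 and 1.55 CPM in the other 5 libraries. In such bulk libraries fewer cells of a type and less RNA per cell cannot be told apart.

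Of 15581 genes, 6117 were called (39.3%), 2928 raised (18.8%) and 3189 lowered (20.5%). Without replicate 2 of Ctrl_0h, 5123 were called (32.9%), 2515 raised (16.1%) and 2608 lowered (16.7%), and 2234 of the raised and 2389 of the lowered genes kept their call and direction. That library bore mainly on large decreases: 1061 genes (6.81%) were lowered at least 4-fold with it and 586 (3.76%) without it, and 539 (3.46%) were raised at least 4-fold with it and 648 (4.16%) without it. The split also depends on the scaling. TMM, the scaling used, centred the median gene at a log2 fold change of -0.04. Plain library totals moved that median by -0.20 and gave 1918 raised and 4620 lowered genes. A list's share of raised or lowered members is read against these percentages, which are not matched to the lists for expression level. The lists were also chosen with earlier results of these data known, which can raise their shares.

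**Figure D1:**
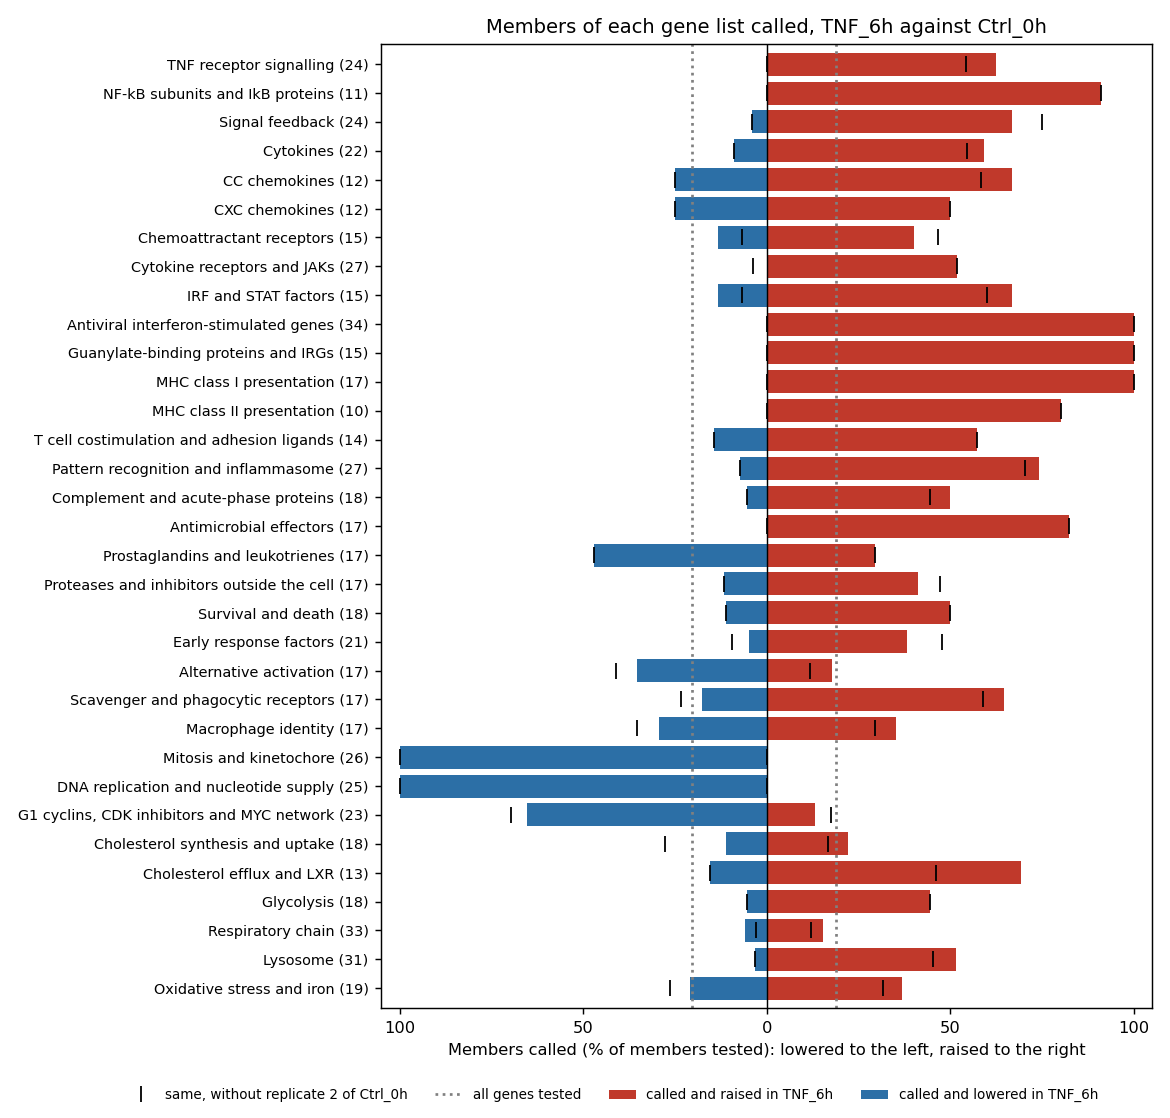
Share of the members of each gene list called and raised (red, to the right) or called and lowered (blue, to the left) in TNF_6h against Ctrl_0h, in percent of the members tested, whose number stands in brackets. Dotted lines are the shares over all genes tested, 18.8% raised and 20.5% lowered, black ticks the shares without replicate 2 of Ctrl_0h, and the bars reach 100% for the antiviral, guanylate-binding and MHC class I lists to the right and for mitosis and DNA replication to the left.

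Of 24 genes of TNF receptor signalling, 15 rose and 0 fell, with a median log2 fold change of 0.64 against -0.04 over all genes tested, and 13 rose and 0 fell without replicate 2 of Ctrl_0h. Traf1, an adaptor of the second receptor (ENSMUSG00000026875, chromosome 2, 34941750 to 34961812 in GRCm38.p6), had 293, 281 and 278 CPM in TNF_6h, against 21.1, 19.7 and 23.5 CPM in Ctrl_0h. The groups lay far apart, and the log2 fold change was 3.73 ± 0.13 (edgeR adjusted p = 1.14e-13). Birc3, a ubiquitin ligase of the receptor complex, had 127, 136 and 134 CPM in TNF_6h and 25.2, 16.6 and 26.0 CPM in Ctrl_0h, a log2 fold change of 2.55 ± 0.15. Ikbke, a kinase of the IkB kinase family, rose by 2.68 ± 0.12, Tank, which binds Traf proteins, by 1.75 ± 0.19 and Rnf31, a subunit of the linear ubiquitin ligase, by 1.66 ± 0.21 on the log2 scale. The receptors differed. Tnfrsf1b rose by 1.86 ± 0.12, while Tnfrsf1a, at 243, 223 and 228 CPM in TNF_6h and 189, 155 and 196 CPM in Ctrl_0h, had a log2 fold change of 0.36 ± 0.13 with an adjusted p of 0.0312, and lost its call without replicate 2 of Ctrl_0h (log2 fold change 0.26 ± 0.13, edgeR adjusted p = 0.146) and without any replicate of TNF_6h (log2 fold changes 0.32 to 0.39). Tradd, the adaptor of the first receptor, and the kinase Map3k7 did not pass the test, with log2 fold changes of -0.18 ± 0.16 and 0.16 ± 0.14.

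Of 11 NF-kB subunits and IkB proteins, 10 rose and 0 fell (median 1.20), and all 11 had every TNF_6h library above every Ctrl_0h library, as had 25.9% of all genes tested. The subunits Relb and Nfkb2, which pair in the alternative pathway, had log2 fold changes of 2.10 ± 0.17 and 1.90 ± 0.16, against 0.65 ± 0.13, 0.49 ± 0.11 and 0.47 ± 0.19 for Rela, Nfkb1 and Rel, of which Rel did not pass (edgeR adjusted p = 0.0531). Relb had 316, 274 and 291 CPM in TNF_6h and 70.5, 62.6 and 73.1 CPM in Ctrl_0h. Among the inhibitors, Nfkbie had 185, 169 and 164 CPM in TNF_6h, against 29.7, 19.5 and 28.9 CPM in Ctrl_0h, a log2 fold change of 2.73 ± 0.17 (edgeR adjusted p = 3.08e-10). Nfkbia rose by 2.31 ± 0.12, Bcl3 by 1.76 ± 0.25, Nfkbiz by 1.20 ± 0.14 and Nfkbid by 0.80 ± 0.15.

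Of 24 genes that damp such signals, 16 rose and 1 fell (median 0.74), and 18 rose and 1 fell without replicate 2 of Ctrl_0h. Dusp4, a phosphatase of MAP kinases, had 74.2, 77.5 and 76.4 CPM in TNF_6h, against 22.4, 16.6 and 23.8 CPM in Ctrl_0h, and rose by 1.86 ± 0.23. Usp18, which limits interferon signalling, had 157, 157 and 161 CPM in TNF_6h and 19.6, 14.4 and 24.4 CPM in Ctrl_0h and rose by 3.02 ± 0.16. Sqstm1, a ubiquitin-binding adaptor of autophagy, rose by 1.03 ± 0.15, and Otulin, which takes linear ubiquitin chains apart, fell to 78.0, 74.8 and 64.7 CPM in TNF_6h, against 122, 108 and 109 CPM in Ctrl_0h. Socs1, Socs2, Socs3 and Cish, inhibitors of JAK and STAT signalling, were called, as raised, only without replicate 2 of Ctrl_0h. Socs2 had 2.11, 2.89 and 2.89 CPM in TNF_6h and 0.107, 6.02 and 0.424 CPM in Ctrl_0h, so that the groups overlapped (log2 fold change 0.30 ± 0.67, edgeR adjusted p = 0.753). Without replicate 2 of Ctrl_0h the log2 fold change of Socs2 was 3.36 ± 0.38 (adjusted p = 1.42e-06). Of 21 early response factors, 8 rose and 1 fell with that library, and 10 rose and 2 fell without it, with medians of 0.08 and 0.53. With plain library totals the median of these factors was -0.12. Egr1 had 7.97, 9.90 and 8.25 CPM in TNF_6h and 2.08, 13.7 and 2.61 CPM in Ctrl_0h, and its log2 fold change was 0.51 ± 0.43 with all libraries and 1.90 ± 0.20 without that one. Fos, at 106, 117 and 102 CPM in TNF_6h and 34.8, 24.2 and 27.7 CPM in Ctrl_0h, and Junb, at 733, 642 and 704 CPM in TNF_6h and 219.6, 185 and 231 CPM in Ctrl_0h, rose in both fits.

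The promoters of 2 raised genes are printed because they hold the letters of an NF-kB motif (GGGA, any 2 bases, TTCC), searched on both strands from 250 bases before to 50 bases after the gene start. Sequences are those of RefSeq in GRCm38.p6, 250 bases up to the start, with motif matches in capitals, and they were chosen after the matches were seen. Nfkbia lies on the minus strand (chr12:55492648-55492897) and Cxcl2, a chemokine gene for neutrophils, on the plus strand (chr5:90903649-90903898).
Nfkbia: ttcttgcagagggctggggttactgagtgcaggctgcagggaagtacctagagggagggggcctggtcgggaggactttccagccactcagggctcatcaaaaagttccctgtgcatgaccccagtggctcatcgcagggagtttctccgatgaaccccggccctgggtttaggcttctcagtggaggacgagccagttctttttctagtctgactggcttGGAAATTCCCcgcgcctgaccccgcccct
Cxcl2: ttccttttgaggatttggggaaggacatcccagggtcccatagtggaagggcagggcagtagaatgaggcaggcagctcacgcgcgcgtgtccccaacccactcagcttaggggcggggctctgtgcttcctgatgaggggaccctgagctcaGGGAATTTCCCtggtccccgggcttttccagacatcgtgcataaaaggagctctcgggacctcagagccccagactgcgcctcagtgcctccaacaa
In Nfkbia the match begins at base -29 from the start, on the strand opposite to the gene, and in Cxcl2 2 matches on the 2 strands overlap by all but 1 base, at -97 and -96. The motif stood in 1.79% of the promoters of 10453 tested genes, in 4.71% of 297 raised at least 4-fold with and without replicate 2 of Ctrl_0h, and in 1.21% of 412 lowered as much. Over all 32851 promoters in the table the share was 1.47%.

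Most cytokine genes that were called rose. Of 30 cytokine genes 22 were tested, of which 13 rose and 2 fell (median 1.22). Il1rn, the antagonist of the interleukin 1 receptor, had 65.7, 65.3 and 60.4 CPM in TNF_6h, against 7.03, 5.55 and 5.06 CPM in Ctrl_0h, a log2 fold change of 3.44 ± 0.15 (edgeR adjusted p = 1.99e-12). Vegfa, a growth factor of vessels, had 87.7, 88.7 and 103 CPM in TNF_6h and 21.7, 17.8 and 23.3 CPM in Ctrl_0h. Csf1, the gene of M-CSF itself, had 13.1, 12.3 and 17.7 CPM in TNF_6h and 3.02, 4.67 and 2.51 CPM in Ctrl_0h (log2 fold change 2.08 ± 0.22). Il27, Il15 and Il18 rose by 3.29 ± 0.33, 1.26 ± 0.22 and 1.17 ± 0.27, and Tnfsf10, a death ligand, by 3.53 ± 0.46. Il16 fell to 7.04, 6.12 and 6.67 CPM in TNF_6h, against 29.2, 29.3 and 29.1 CPM in Ctrl_0h, and Tnfsf14, a ligand of the TNF family, fell by 2.02 on the log2 scale. Il6 was close to the limit of detection, with 0, 0.0597 and 0 CPM in TNF_6h and 0, 0.135 and 0 CPM in Ctrl_0h. Csf2, Il33 and Ccl20 had 0 counts in all 6 libraries, and Csf3 had counts in replicate 2 of Ctrl_0h alone. Tgfb1 differed by less than the spread between replicates, at 668, 526 and 529 CPM in TNF_6h and 577, 566 and 596 CPM in Ctrl_0h.

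Interferon beta was measured with few reads. Ifnb1 had 47 counts over TNF_6h and 2 over Ctrl_0h, both in replicate 2, which is 0.737, 0.298 and 0.516 CPM in TNF_6h and 0, 0.0676 and 0 CPM in Ctrl_0h. The ratio of the counts was 24.8, with a 95% interval of 6.50 to 211 that covers counting error only, and at least 11.5-fold without that library, taking 3 counts for the 0 of the group. It was called (edgeR adjusted p = 0.0173), and lost its call when replicate 1 or replicate 3 of Ctrl_0h was left out, with log2 fold changes of 3.82 and 3.92.

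Chemokine genes moved in both directions. Of 12 CC chemokines tested 8 rose and 3 fell (median 0.89), and of 12 CXC and related chemokines 6 rose and 3 fell (median 1.23). Cxcl2 had 45.9, 52.8 and 47.0 CPM in TNF_6h, against 3.87, 2.94 and 3.16 CPM in Ctrl_0h, a log2 fold change of 3.86 ± 0.13 (edgeR adjusted p = 5.27e-14). The CXCR3 ligands Cxcl9, Cxcl10 and Cxcl11 all rose: Cxcl10 had 209.5, 196 and 190.4 CPM in TNF_6h and 5.0, 2.91 and 7.31 CPM in Ctrl_0h (log2 fold change 5.29 ± 0.61), and Cxcl11 had 6.67, 7.07 and 5.29 CPM in TNF_6h and 0 counts in Ctrl_0h, which makes it at least 208-fold higher. Ccl9 had 1229.7, 1337 and 1179 CPM in TNF_6h and 604, 479 and 550.2 CPM in Ctrl_0h, Ccl6 rose by 1.51 ± 0.12, and Cxcl16, a chemokine and scavenger receptor, by 1.67 ± 0.11. In the other direction Ccl2, the main monocyte chemokine, fell to 8.14, 8.08 and 7.22 CPM in TNF_6h, against 20.6, 17.3 and 14.7 CPM in Ctrl_0h. Cxcl14 fell to 4.42, 3.07 and 4.78 CPM in TNF_6h, against 12.7, 14.6 and 13 CPM in Ctrl_0h, and Pf4 to 34.5, 28.3 and 29.8 CPM in TNF_6h, against 83.5, 94.1 and 81.7 CPM in Ctrl_0h. Ccl3 and Ccl4, inflammatory chemokines, rose by 0.57 ± 0.13 and 0.47 ± 0.18, and Ccl4 lost its call without replicate 2 of Ctrl_0h (edgeR adjusted p = 0.122).

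Receptors for such signals rose in part. Of 27 cytokine receptors and JAK kinases, 14 rose and 0 fell (14 and 1 without replicate 2 of Ctrl_0h), and of 15 chemoattractant receptors 6 rose and 2 fell (7 and 1), with medians of 0.62 and 0.27. Il15ra, the chain that presents interleukin 15, had 23.6, 22.6 and 24.5 CPM in TNF_6h, against 2.08, 2.10 and 2.38 CPM in Ctrl_0h. Il2rg, the shared chain of several interleukin receptors, had 300.5, 300.1 and 262 CPM in TNF_6h and 40.8, 33.5 and 43.2 CPM in Ctrl_0h, and Csf3r rose by 2.91 ± 0.19. The kinases Jak2 and Tyk2 rose by 2.18 ± 0.16 and 1.22 ± 0.16, Jak1 by 0.62 ± 0.14, and Jak3 did not pass (log2 fold change 0.10 ± 0.19). The interferon receptor chains split: Ifngr2 and Ifnar1 rose by 1.19 ± 0.12 and 0.54 ± 0.10, while Ifngr1 and Ifnar2 had log2 fold changes of 0.08 ± 0.15 and 0.02 ± 0.14 and did not pass. Csf2ra, at 2500.2, 2381 and 1966 CPM in TNF_6h and 1322, 859 and 1585 CPM in Ctrl_0h, lay at the threshold (log2 fold change 0.86 ± 0.34, edgeR adjusted p = 0.0514). Among chemoattractant receptors, Cmklr1, the chemerin receptor, had 13.2, 18.0 and 15.2 CPM in TNF_6h and 2.30, 2.40 and 2.15 CPM in Ctrl_0h, Ccrl2, which holds chemerin at the surface, rose by 3.18 ± 0.30, and Fpr1, a receptor for bacterial peptides, by 7.40 ± 0.67. Ccr2 and Cx3cr1, which mark monocyte classes, had log2 fold changes of -1.54 ± 0.33 and -0.79 ± 0.36, of which Cx3cr1 did not pass (edgeR adjusted p = 0.0897).

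Interferon-stimulated genes rose without exception among those listed. All 34 antiviral genes rose with and without replicate 2 of Ctrl_0h, with a median log2 fold change of 2.72. In all 34 the libraries of TNF_6h lay above those of Ctrl_0h, against 25.9% of all genes tested. Ifit2, which binds foreign RNA, had 586, 656 and 668 CPM in TNF_6h, against 18.8, 12.3 and 25.9 CPM in Ctrl_0h, a log2 fold change of 5.07 ± 0.76 (edgeR adjusted p = 2.64e-05). Ifi44 had 134, 151 and 135 CPM in TNF_6h and 4.36, 2.81 and 2.77 CPM in Ctrl_0h, the largest log2 fold change of this list at 5.39 ± 0.57. Isg20, a nuclease, and Zbp1, a sensor of Z-form nucleic acids, rose by 4.94 ± 0.54 and 4.82 ± 0.46, and Mx1 and Rsad2, which block virus growth, by 4.59 ± 0.43 and 4.12 ± 0.61. Bst2, which tethers virus particles, had 2474, 2205 and 2093 CPM in TNF_6h and 445, 400.5 and 426 CPM in Ctrl_0h. The smallest log2 fold changes were those of Eif2ak2, Sp100 and Samhd1, at 1.53 ± 0.22, 1.58 ± 0.23 and 1.69 ± 0.12. Ifit3 and Ifit3b are close copies whose reads the counting can split, so their levels are uncertain.

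Of 15 IRF and STAT genes, 10 rose and 2 fell (median 0.81), and 9 rose and 1 fell without replicate 2 of Ctrl_0h, where Irf8 lost its call (edgeR adjusted p = 0.131). Irf7, the factor that amplifies interferon output (ENSMUSG00000025498, chromosome 7, 141263183 to 141266499 in GRCm38.p6), had 3532, 3015 and 3001 CPM in TNF_6h, against 128, 91.0 and 124 CPM in Ctrl_0h, the largest change of the list at 4.80 ± 0.53 (edgeR adjusted p = 6.97e-07). Stat2 had 402, 416 and 406 CPM in TNF_6h and 57.6, 44.3 and 55.4 CPM in Ctrl_0h, and Irf1 rose by 2.28 ± 0.24. Irf9 rose by 1.01 ± 0.15, and Irf3, which is held ready as protein, had 99, 92.1 and 92.1 CPM in TNF_6h and 95.3, 95.5 and 102 CPM in Ctrl_0h and did not pass. Irf4, a factor of alternatively activated macrophages, fell to 0.804, 0.358 and 1.38 CPM in TNF_6h, against 4.09, 2.40 and 4.14 CPM in Ctrl_0h, and Stat4 fell with few counts and lost its call without replicate 2 of Ctrl_0h (edgeR adjusted p = 0.0575).

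All 15 measured guanylate-binding proteins and immunity-related GTPases, which attack vacuoles that hold microbes, rose in both fits, with a median log2 fold change of 4.30. Gbp2 had 263, 267 and 244 CPM in TNF_6h, against 8.18, 4.43 and 6.53 CPM in Ctrl_0h, a log2 fold change of 5.33 ± 0.22 (edgeR adjusted p = 7.31e-13). Iigp1 had 33.6, 35.2 and 36.9 CPM in TNF_6h and 0.775, 0.811 and 1.01 CPM in Ctrl_0h, and Irgm1, which regulates the family, 239.9, 250.3 and 248 CPM in TNF_6h and 47.8, 35.1 and 50.5 CPM in Ctrl_0h. The genes of this family are close copies of each other, Tgtp1 and Tgtp2 above all, so single values are uncertain where reads can be split. Gbp2b and Gbp10 had no matching identifier.

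The promoters of 3 interferon-stimulated genes are printed because they hold the letters of a motif (GAAA, any 2 bases, GAAA), part of the interferon-stimulated response element that binds IRF factors. Cxcl10 and Isg15, a ubiquitin-like modifier, lie on the minus strand (chr5:92348890-92349139 and chr4:156200819-156201068) and Gbp2 on the plus strand (chr3:142620413-142620662). Capitals mark this motif and, in Cxcl10, also the NF-kB motif, again in RefSeq sequence of GRCm38.p6 chosen after the matches were seen.
Cxcl10: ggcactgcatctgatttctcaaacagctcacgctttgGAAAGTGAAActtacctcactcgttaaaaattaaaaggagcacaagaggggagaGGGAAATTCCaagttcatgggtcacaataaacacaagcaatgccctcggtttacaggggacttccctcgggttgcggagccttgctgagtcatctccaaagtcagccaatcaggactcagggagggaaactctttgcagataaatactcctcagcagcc
Isg15: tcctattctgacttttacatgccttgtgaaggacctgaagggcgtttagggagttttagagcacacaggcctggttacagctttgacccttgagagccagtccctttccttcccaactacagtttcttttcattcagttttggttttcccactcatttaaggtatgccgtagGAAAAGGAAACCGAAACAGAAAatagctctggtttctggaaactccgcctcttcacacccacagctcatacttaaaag
Gbp2: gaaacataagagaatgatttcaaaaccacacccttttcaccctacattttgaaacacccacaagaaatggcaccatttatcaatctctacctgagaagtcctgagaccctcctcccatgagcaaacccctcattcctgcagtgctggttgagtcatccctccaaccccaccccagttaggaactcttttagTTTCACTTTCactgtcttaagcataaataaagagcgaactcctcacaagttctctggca
In Cxcl10 the response element begins at base -213 and the NF-kB motif at base -159 from the start. In Isg15 3 matches overlap, from base -78 on, and in Gbp2 the match at base -59 is on the opposite strand. This motif stood in 3.91% of the promoters of tested genes, in 19.9% of the 297 raised at least 4-fold and in 3.16% of the 412 lowered as much. It stood in 12 of 24 promoters of the antiviral list, in 9 of 9 of the guanylate-binding and GTPase list and in 4 of 14 of the MHC class I list. A match is a string of letters in this window, and binding was not measured.

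**Figure D2:**
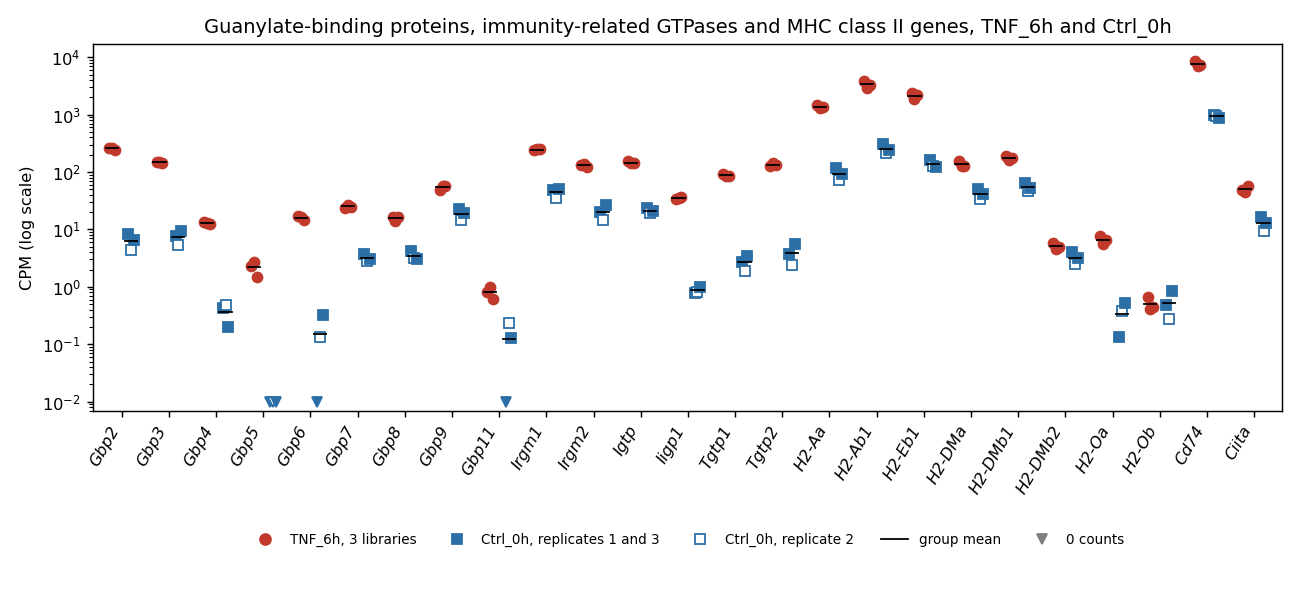
CPM on a log scale of the guanylate-binding proteins, immunity-related GTPases and MHC class II genes in each library of TNF_6h (red circles) and Ctrl_0h (blue squares, open for replicate 2), with group means as bars and triangles at the lower edge for 0 counts. The red points lie above all blue points for every gene drawn except H2-Ob, against 25.9% of all genes tested. Gbp2, for example, is at 263, 267 and 244 CPM in TNF_6h, against 8.18, 4.43 and 6.53 CPM in Ctrl_0h.

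Antigen presentation rose on both arms. All 17 measured genes of MHC class I presentation rose in both fits (median 2.03), and of 10 class II genes 8 rose and 0 fell (median 2.48). H2-Q7, a class I gene outside the main group, had 730.2, 612 and 660.4 CPM in TNF_6h, against 25.4, 25.8 and 25.7 CPM in Ctrl_0h, a log2 fold change of 4.70 ± 0.31 (edgeR adjusted p = 7.53e-10), although reads of the Q genes can be shared between copies. H2-K1 had a log2 fold change of 2.22 ± 0.21, Tap1, which moves peptides into the endoplasmic reticulum, 2.34 ± 0.24, and Nlrc5, the class I transactivator, 2.29 ± 0.20. Of class II, H2-Eb1 had 2359.7, 1872 and 2158 CPM in TNF_6h and 164, 129.9 and 120.3 CPM in Ctrl_0h, and H2-Ab1 3804, 2951 and 3329 CPM in TNF_6h and 307, 216 and 244 CPM in Ctrl_0h. Ciita, the class II transactivator, had 48.7, 44.8 and 58.0 CPM in TNF_6h and 16.8, 9.57 and 13.1 CPM in Ctrl_0h. H2-Ob, a brake on peptide loading, did not pass (log2 fold change -0.06 ± 0.73), whereas its partner H2-Oa rose by 4.28 ± 0.48.

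Of 14 ligands for T cells, 8 rose and 2 fell (median 1.92). Cd274, the ligand PD-L1, had 134, 141 and 139 CPM in TNF_6h, against 10.3, 6.93 and 10.1 CPM in Ctrl_0h, a log2 fold change of 3.92 ± 0.28 (edgeR adjusted p = 1.91e-09). Cd86, a costimulator, had 28.3, 30.3 and 27.0 CPM in TNF_6h and 3.53, 2.87 and 3.39 CPM in Ctrl_0h, and its relative Cd80 had 3.48, 3.07 and 3.68 CPM in TNF_6h and 2.91, 1.99 and 1.47 CPM in Ctrl_0h and did not pass (edgeR adjusted p = 0.0513). The adhesion gene Icam1 rose by 2.97 ± 0.17 and Cd40 by 2.36 ± 0.27. Vsir, an inhibitory receptor, fell to 338, 319 and 316 CPM in TNF_6h, against 528, 404 and 506 CPM in Ctrl_0h, and Cd276 fell by 2.51 on the log2 scale.

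Of 27 sensors of microbes and inflammasome genes, 20 rose and 2 fell (median 1.12). Clec4e, the receptor Mincle for mycobacterial glycolipid (ENSMUSG00000030142, chromosome 6, 123281789 to 123289871 in GRCm38.p6), had 802, 892 and 825 CPM in TNF_6h, against 9.99, 7.27 and 8.29 CPM in Ctrl_0h, a log2 fold change of 6.62 ± 0.33 (edgeR adjusted p = 1.57e-11). Nod1 and Nod2, sensors of bacterial wall fragments, rose by 2.80 ± 0.26 and 2.48 ± 0.21. The Toll-like receptors divided: Tlr2, for lipoproteins, rose by 2.06 ± 0.12, Tlr3 and Tlr9 by 1.76 ± 0.29 and 1.55 ± 0.28, and Tlr4, the receptor for lipopolysaccharide, had 36.9, 43.6 and 39.2 CPM in TNF_6h and 43.4, 35.0 and 43.3 CPM in Ctrl_0h, which overlapped. Cd14, which hands lipopolysaccharide to Tlr4, rose by 1.12 ± 0.13. In the inflammasome list Casp4 and Gsdmd, the pore-forming protein, rose by 1.72 ± 0.19 and 1.78 ± 0.11, while Pycard, the adaptor, fell to 41.1, 32.1 and 31.7 CPM in TNF_6h, against 71.1, 83.9 and 60.4 CPM in Ctrl_0h.

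Of 17 antimicrobial effectors, 14 rose and 0 fell (median 1.62), and of 18 complement and acute-phase genes 9 rose and 1 fell (median 1.39, and 2.40 with 8 raised without replicate 2 of Ctrl_0h). Ass1, which makes the precursor of arginine and so feeds nitric oxide synthesis, had 247, 233 and 232 CPM in TNF_6h, against 3.10, 3.99 and 2.87 CPM in Ctrl_0h, a log2 fold change of 6.16 ± 0.19 (edgeR adjusted p = 1.58e-14). Gch1, which makes the cofactor of nitric oxide synthase, rose by 2.09 ± 0.16. Cybb, the catalytic subunit of the phagocyte oxidase, had 1287, 1498 and 1299 CPM in TNF_6h and 178, 136 and 161 CPM in Ctrl_0h, and Sod2, the mitochondrial superoxide dismutase, 677, 646 and 637 CPM in TNF_6h and 68.7, 70.1 and 61.0 CPM in Ctrl_0h. Of complement, C1ra rose by 3.02 ± 0.16, and the C1q genes C1qb and C1qc did not pass (log2 fold changes 0.30 ± 0.20 and 0.28 ± 0.24). The remaining C1q gene, C1qa, had 3788, 3086 and 3228 CPM in TNF_6h, against 2215, 2068 and 2114 CPM in Ctrl_0h. Cp, the copper carrier ceruloplasmin, had 21.8, 20.8 and 17.6 CPM in TNF_6h and 0.481, 0.440 and 1.14 CPM in Ctrl_0h.

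Genes for lipid mediators moved in opposite directions: of 17, 5 rose and 8 fell (median -0.26). Ptgs2, the inducible cyclooxygenase, had 8.88, 12.3 and 9.83 CPM in TNF_6h, against 0.267, 0.304 and 0.196 CPM in Ctrl_0h, and Ptges, which makes prostaglandin E, 13.2, 15.3 and 13.8 CPM in TNF_6h and 0.909, 1.79 and 0.489 CPM in Ctrl_0h. Ptgs1, the constitutive cyclooxygenase, fell to 5.76, 7.43 and 7.32 CPM in TNF_6h, against 48.3, 44.2 and 46.2 CPM in Ctrl_0h. Hpgd, which inactivates prostaglandins (ENSMUSG00000031613, chromosome 8, 56294552 to 56321046 in GRCm38.p6), fell to 5.96, 8.86 and 5.74 CPM in TNF_6h, against 137, 116 and 139.6 CPM in Ctrl_0h, a log2 fold change of -4.25 ± 0.22 (edgeR adjusted p = 3.17e-11). In the leukotriene branch Alox5, the 5-lipoxygenase, fell to 1.51, 1.88 and 1.65 CPM in TNF_6h, against 28.2, 27.8 and 28.5 CPM in Ctrl_0h, and its helper Alox5ap, Ltc4s and Lta4h fell by 1.06, 1.88 and 0.44 on the log2 scale. The receptors Ptger4 and Ptgir rose by 2.13 ± 0.12 and 2.33 ± 0.21.

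Among 17 proteases and inhibitors that act outside the cell, 7 rose and 2 fell, with a median of -0.05 that turned to 0.68 without replicate 2 of Ctrl_0h. Mmp9, a gelatinase, had 54.2, 47.0 and 48.2 CPM in TNF_6h, against 1.31, 4.36 and 1.34 CPM in Ctrl_0h. Its log2 fold change was 4.43 ± 0.39 with that library, the highest of the 3, and 5.23 ± 0.37 without it. Adam17, the protease that sheds TNF from the cell surface, had 433, 479.6 and 449 CPM in TNF_6h and 160.1, 114 and 154 CPM in Ctrl_0h and rose by 1.67 ± 0.13.

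Of 18 genes of survival and death, 9 rose and 2 fell (median 0.56). Cflar, which blocks caspase 8 at the TNF receptor, had 104, 122 and 119.8 CPM in TNF_6h, against 34.9, 25.8 and 35.1 CPM in Ctrl_0h. The death receptor Fas rose by 2.68 ± 0.16 and Mcl1, a survival factor, by 1.10 ± 0.13. The necroptosis pair moved apart, in that Mlkl, which opens the membrane, rose by 1.74 ± 0.21 while Ripk3, its kinase, fell to 22.0, 23.7 and 22.0 CPM in TNF_6h, against 58.6, 45.2 and 58.5 CPM in Ctrl_0h.

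Genes of alternative activation and of macrophage identity gave a mixed picture. In the alternative activation list, 3 of 17 rose and 6 fell (median -0.47). Cd163, the haemoglobin scavenger, fell to 1.14, 0.686 and 0.825 CPM in TNF_6h, against 14.8, 9.20 and 16.9 CPM in Ctrl_0h, a log2 fold change of -3.95 ± 0.40 (edgeR adjusted p = 2.47e-07). Clec10a fell to 6.97, 6.89 and 6.19 CPM in TNF_6h, against 17.9, 22.1 and 20.1 CPM in Ctrl_0h, and Stab1 by 0.64 on the log2 scale, while Tgm2 rose by 1.31 ± 0.15. Arg1, Retnla and Chil3 had at most 0.270 CPM in any of the 6 libraries. Of 17 identity genes, 6 rose and 5 fell with a median of 0.20 (5 and 6 without replicate 2 of Ctrl_0h). Csf1r, the receptor for M-CSF, had 4309, 4117 and 3869 CPM in TNF_6h and 2295, 1621 and 2235 CPM in Ctrl_0h (log2 fold change 1.00 ± 0.12), and Cebpb, a factor of activated macrophages, 982, 818 and 447 CPM in TNF_6h and 314, 284 and 345 CPM in Ctrl_0h, with replicate 3 the lowest of TNF_6h. Cebpa fell to 113, 93.9 and 82.6 CPM in TNF_6h, against 311, 175 and 329 CPM in Ctrl_0h, and Spi1, the factor PU.1, did not pass although the groups did not overlap (2555, 1933 and 1772 CPM in TNF_6h and 1645, 1740.5 and 1700.5 CPM in Ctrl_0h). Of 17 scavenger and phagocytic receptors, 11 rose and 3 fell (median 1.15). Marco had 24.8, 17.5 and 21.7 CPM in TNF_6h and 1.28, 1.79 and 1.44 CPM in Ctrl_0h, Axl rose by 2.44 ± 0.19, and the receptors for antibody split, with Fcgr4 and Fcgr2b raised by 2.54 ± 0.40 and 2.06 ± 0.14 and Fcgr3 lowered to 141, 124 and 125 CPM in TNF_6h, against 341, 286 and 298 CPM in Ctrl_0h.

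The genes of the cell cycle fell together. All 26 genes of mitosis and the kinetochore and all 25 of DNA replication and nucleotide supply fell, with and without replicate 2 of Ctrl_0h, with median log2 fold changes of -3.04 and -2.53. The libraries of TNF_6h lay below those of Ctrl_0h for 26 of 26 and 24 of 25 of them, against 24% of all genes tested, Fen1 being the exception. Top2a, which untangles DNA, had 23.4, 30.4 and 22.4 CPM in TNF_6h, against 237, 191 and 253 CPM in Ctrl_0h, a log2 fold change of -3.16 ± 0.45 (edgeR adjusted p = 1.30e-05). Ccna2, a cyclin, had 4.99, 5.07 and 5.19 CPM in TNF_6h and 70.8, 53.4 and 74.9 CPM in Ctrl_0h, and the kinetochore gene Spc24 5.33, 5.46 and 4.50 CPM in TNF_6h and 65.0, 61.6 and 61.2 CPM in Ctrl_0h. Tk1, thymidine kinase (ENSMUSG00000025574, chromosome 11, 117815519 to 117826087 in GRCm38.p6), had 14.1, 16.3 and 14.1 CPM in TNF_6h, against 273, 289.5 and 296 CPM in Ctrl_0h, the largest fall of the replication list at -4.27 ± 0.25. Rrm2, a subunit of ribonucleotide reductase, fell by 3.97 and Pcna, the clamp of the replication fork, by 1.40 on the log2 scale.

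Of 23 measured genes of G1 cyclins, CDK inhibitors and the MYC network, 3 rose and 15 fell (median -0.87). Cdkn1a, the inhibitor p21, rose to 256, 246 and 245 CPM in TNF_6h, against 119.6, 94.6 and 135 CPM in Ctrl_0h (log2 fold change 1.10 ± 0.14). Cdkn2a and Cdkn2c, which inhibit CDK4 and CDK6, fell by 4.18 and 3.04 on the log2 scale, Cdkn2a to 0.503, 0.716 and 0.825 CPM in TNF_6h, against 12.5, 12.3 and 12.5 CPM in Ctrl_0h. Myc fell to 5.03, 5.19 and 4.71 CPM in TNF_6h, against 12.5, 13.4 and 12.6 CPM in Ctrl_0h, while Max, its partner, and Mxd1, its antagonist, rose by 0.81 ± 0.12 and 1.55 ± 0.17. Ccne2 fell by 3.51 and E2f1 by 1.31.

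The promoter of Top2a (minus strand, chr11:99024190-99024439, RefSeq, GRCm38.p6, chosen after the matches were seen) is printed because it holds TTTGAA, the letters of the cell cycle gene homology region (CHR) known from genes of mitosis.
Top2a: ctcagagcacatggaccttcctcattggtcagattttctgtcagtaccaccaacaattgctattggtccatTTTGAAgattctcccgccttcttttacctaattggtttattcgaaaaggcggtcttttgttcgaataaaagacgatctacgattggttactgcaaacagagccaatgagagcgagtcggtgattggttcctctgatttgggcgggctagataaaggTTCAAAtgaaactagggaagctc
The matches begin at bases -179 and -23 from the start, the second on the opposite strand. TTTGAA stood in 15 of 20 promoters of the mitosis list and 3 of 20 of the replication list, in 27.7% of the 412 lowered at least 4-fold, in 20.2% of the 297 raised as much and in 14.5% of the promoters of tested genes. Such short letters are common, and binding was not measured.

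Of 18 glycolysis genes, 8 rose and 1 fell with a median of 0.25, and 0.16 without replicate 2 of Ctrl_0h (7 and 6 with plain library totals). Pfkfb3, which makes the activator of phosphofructokinase, had 25.6, 28.6 and 28.4 CPM in TNF_6h, against 8.26, 5.95 and 9.20 CPM in Ctrl_0h, and Slc2a1, a glucose transporter, rose by 1.34 ± 0.16, while Pkm fell by 0.61. Of 33 respiratory chain genes, 5 rose and 2 fell with a median of 0.06 (2 and 10 with plain library totals). Without replicate 2 of Ctrl_0h 4 rose and 1 fell, with a median of -0.002. In the cholesterol synthesis and uptake list, 4 of 18 rose and 2 fell (median 0.08), but 3 rose and 5 fell without replicate 2 of Ctrl_0h and 3 and 8 with plain library totals, so the list had no stable direction. In the list of cholesterol efflux and LXR genes 9 of 13 rose and 2 fell with a median of 0.64 (6 and 2 without replicate 2 of Ctrl_0h). Nr1h3, the nuclear receptor LXR alpha, had 412, 351 and 389 CPM in TNF_6h, against 41.7, 39.8 and 37.4 CPM in Ctrl_0h, an increase with an edgeR adjusted p of 3.28e-09, and the exporter Abca1 rose by 1.64 ± 0.17.

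Of 31 lysosomal genes 16 rose and 1 fell (median 0.47). All TNF_6h libraries lay above all Ctrl_0h libraries in 25 of the 31, against 25.9% of all genes tested. Ctsz, a cathepsin, had 6921, 5832 and 6843 CPM in TNF_6h, against 1912, 1914 and 1764 CPM in Ctrl_0h. Ctss, the cathepsin that trims the class II chaperone, had 8119, 8305 and 7971 CPM in TNF_6h and 3092, 2379 and 2861 CPM in Ctrl_0h, and Npc2, which carries cholesterol out of lysosomes, rose by 1.58 ± 0.17. Of 19 genes of oxidative stress and iron, 7 rose and 4 fell with a median of 0.03, and 6 and 5 with a median of -0.12 without replicate 2 of Ctrl_0h (4 and 7 with plain library totals). The metallothioneins, which bind zinc, fell: Mt2 had 0.871, 2.15 and 1.20 CPM in TNF_6h, against 23, 24.9 and 21.3 CPM in Ctrl_0h, and Mt1 74.0, 67.7 and 61.0 CPM in TNF_6h, against 265, 299.5 and 251 CPM in Ctrl_0h. Slc11a2, an iron transporter, rose by 1.44 ± 0.12.

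By difference in mean CPM, the called genes with the largest gain were Fth1, Lyz2, H2-K1, H2-D1, Cd74 and Psap. Those with the largest loss were Apoe, Tmsb4x, Pkm, Lgals1, Tuba1b and Rpsa. Fth1, the heavy chain of the iron store ferritin, had 35542, 31943 and 28455 CPM in TNF_6h, against 14676, 17319 and 14144 CPM in Ctrl_0h. Psap, the precursor of saposins, had 12637, 11069 and 12108 CPM in TNF_6h and 5873, 4232 and 5517 CPM in Ctrl_0h. Apoe, a lipid carrier, fell to 6457, 5238 and 5648 CPM in TNF_6h, against 11281, 11949 and 10537 CPM in Ctrl_0h, and Tuba1b, a tubulin gene, to 576, 563 and 518 CPM in TNF_6h, against 2184, 1814 and 2444 CPM in Ctrl_0h. All 12 were called with and without replicate 2 of Ctrl_0h, and Apoe lost its call when replicate 3 of TNF_6h was left out as well (log2 fold change -0.90).

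By fold, 12 raised and 12 lowered genes stood out among those called in both fits, with groups that did not overlap and a mean of 10 CPM or more in the higher one. The raised were Cfb, Saa3, H2-M2, Acod1, Ccl5, Hp, Nos2, Mmp14, C3, Fpr2, Slfn1 and Gbp6. Of these Slfn1, a gene of the Schlafen family, had 97.1, 94.7 and 81.7 CPM in TNF_6h, against 0.668, 0.270 and 0.946 CPM in Ctrl_0h, a log2 fold change of 7.16 ± 0.92 (edgeR adjusted p = 3.81e-06). The lowered were Slco2b1, Ighm, Mxd3, Nanos1, Dmpk, Esco2, Sapcd2, Mns1, Tox2, Hmgb3, Cenpm and Tk1. Esco2, Cenpm and Tk1 act in the cell cycle. Tox2, a DNA-binding protein, had 1.17, 1.16 and 0.894 CPM in TNF_6h, against 24.6, 18.7 and 27.3 CPM in Ctrl_0h, and Hmgb3 1.44, 1.04 and 1.65 CPM in TNF_6h, against 31.6, 28.9 and 28.5 CPM in Ctrl_0h. Replicate 2 of Ctrl_0h weighed on 4 of the raised genes, whose log2 fold changes without it were 12.06 ± 0.98 for Cfb, 11.52 ± 0.78 for Hp, 13.88 ± 1.44 for Nos2 and 8.44 ± 0.39 for Mmp14, against 10.01 ± 0.75, 8.69 ± 0.63, 7.39 ± 0.82 and 7.21 ± 0.53 with it. Cfb and Nos2 then had 0 counts in Ctrl_0h, so that the fold was at least 318-fold for Cfb and 1127-fold for Nos2 with 3 counts taken for the 0 of the group.

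**Figure D3:**
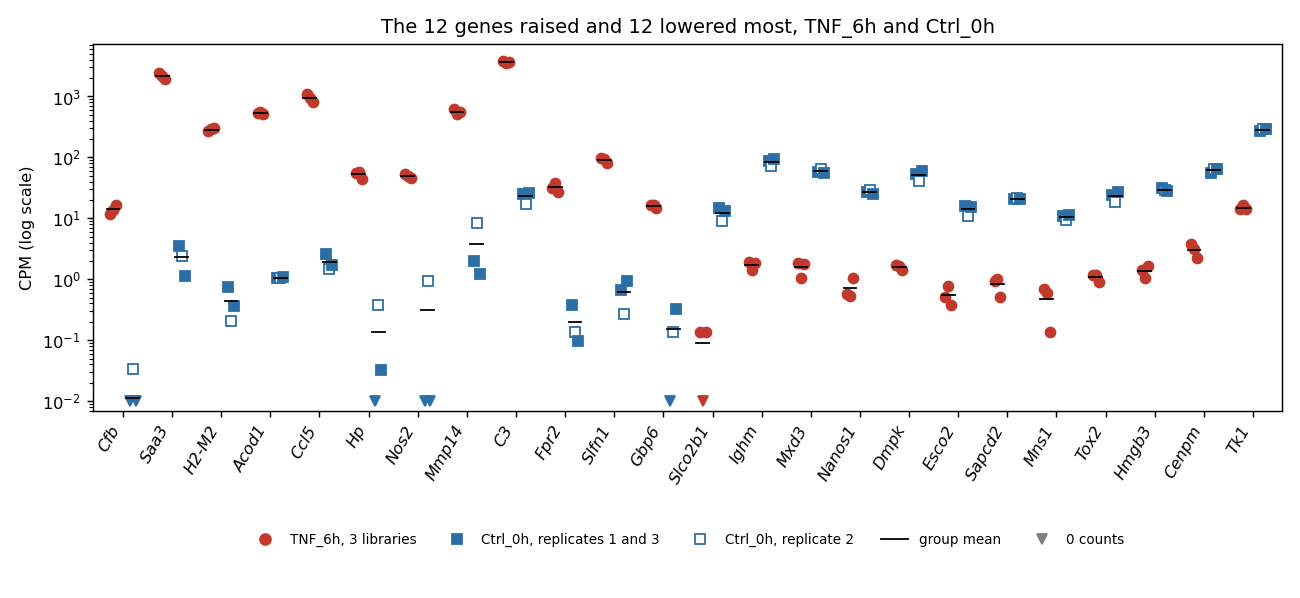
CPM on a log scale of the 12 genes raised and the 12 lowered most in each library of TNF_6h (red circles) and Ctrl_0h (blue squares, open for replicate 2), with group means as bars and triangles at the lower edge for 0 counts. The groups do not overlap in any gene by the rule that chose them, as for C3 at 3825, 3488 and 3698 CPM in TNF_6h, against 25.0, 17.5 and 26.2 CPM in Ctrl_0h.

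A second look at TNF at 6 h came from libraries that share none with the first comparison: IL_TNF_6h against IL_6h, where the control was sampled at 6 h as well. Ifi202b, an interferon-inducible gene, set these 6 libraries apart, as it had 50.5 ± 12.2 CPM in IL_TNF_6h and 39.4 ± 10.8 CPM in IL_6h (mean ± SD, n = 3 each) and 0 counts in the other 15 libraries of the series, those with IL for 24 h included. Whether IL at 6 h or another difference between the libraries goes with this was not tested. In a difference between the 2 comparisons, the effect of IL, the age of the control and these sets of libraries cannot be told apart. With IL, 2193 genes were called (14.1%), 1105 raised (7.09%) and 1088 lowered (6.98%). Of the genes raised in TNF_6h against Ctrl_0h, 800 (27.3%) were raised here too, which is 72.4% of the genes raised here, and 76 were lowered here. Of the lowered genes 551 (17.3%) were lowered here too, 50.6% of those lowered here, and 56 were raised here.

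The NF-kB list rose in full, 11 of 11, with a median of 1.33 against 1.20 without IL. By the edgeR test of the difference, the effect of TNF was lower with IL in 3 of the 11 and higher in 1. The antiviral list rose in 25 of 34 genes with a median of 1.13, and the effect of TNF was lower with IL in 20 of the 34 by the test of the difference itself, which called 18.4% of all genes, 9.13% as lower with IL and 9.27% as higher. MHC class I rose in 11 of 17 (median 0.74), with a lower effect in 13. Irf7 had 599 ± 69.3 CPM in IL_TNF_6h and 536 ± 79.6 CPM in IL_6h (mean ± SD, n = 3 each), a log2 fold change of 0.16 ± 0.46 (edgeR adjusted p = 0.914), beside 114 ± 20.4 CPM in Ctrl_0h. Cxcl2, by contrast, rose by 3.33 ± 0.12 with IL and 3.86 ± 0.13 without, and Clec4e by 4.30 ± 0.29 with IL and 6.62 ± 0.33 without.

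Few cell cycle genes were called with IL, though their medians lay below 0. Of 26 mitosis genes, 2 rose and 0 fell with IL, and of 25 replication genes 0 rose and 4 fell. The median log2 fold changes with IL were -0.38 and -0.39, against -0.01 over all genes tested, and -3.04 and -2.53 without IL. The effect of TNF differed between the comparisons in 24 mitosis and 22 replication genes (edgeR test of the difference). Their levels in IL_6h were already low: all 26 and all 25 had a lower mean in IL_6h than in Ctrl_0h, and 24 and 17 a lower mean than in TNF_6h. Top2a had 10.1 ± 2.18 CPM in IL_TNF_6h and 11.9 ± 2.40 CPM in IL_6h, beside 25.4 ± 4.34 CPM in TNF_6h and 227 ± 32.3 CPM in Ctrl_0h (mean ± SD, n = 3 each). The part of time in culture in the fall of these genes was not tested. Of the lysosomal genes, 1 of 31 rose and 3 fell with IL, and Ctss had 3953 ± 55.3 CPM in IL_TNF_6h and 4127 ± 237 CPM in IL_6h.

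**Figure D4:**
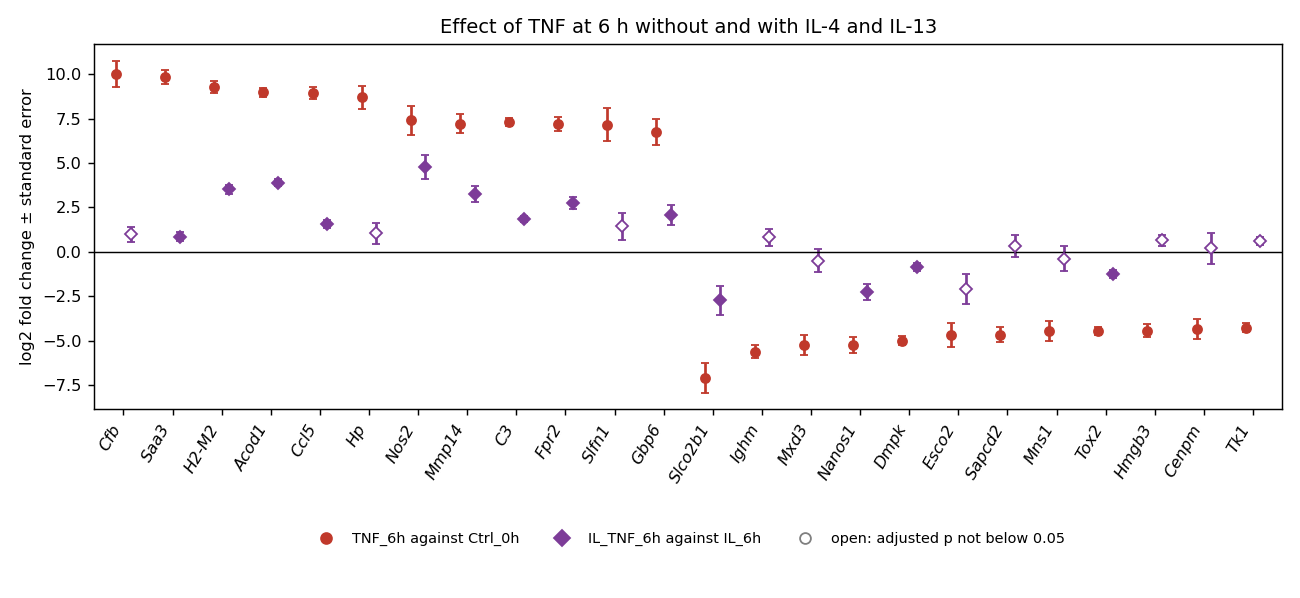
Log2 fold change ± SE of the 12 genes raised and the 12 lowered most, for TNF_6h against Ctrl_0h (red circles) and for IL_TNF_6h against IL_6h (purple diamonds), with open symbols where the adjusted p was not below 0.05. All purple points of the raised genes lie below the red ones, as for Acod1 at 3.90 ± 0.20 with IL and 8.98 ± 0.26 without IL, and those of the lowered genes lie nearer to 0. The genes were picked by their red values, which tilts this difference.

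In TNF_24h against TNF_6h, which share the TNF_6h libraries with the first comparison, 3675 genes were called (23.6%), 1980 raised (12.7%) and 1695 lowered (10.9%). All 26 mitosis genes rose, but 24 of them kept a lower mean than in Ctrl_0h: Top2a had 227 ± 32.3 CPM in Ctrl_0h, 25.4 ± 4.34 CPM in TNF_6h and 195 ± 25.2 CPM in TNF_24h (mean ± SD, n = 3 each). Cxcl10 had 2892 ± 297 CPM in TNF_24h, against 199 ± 9.84 CPM in TNF_6h, a log2 fold change of 3.86 ± 0.56. Ass1 and H2-Aa went the other way, with log2 fold changes of -2.16 ± 0.15 and -1.49 ± 0.15, and Traf1 and Clec4e did not pass (log2 fold changes -0.01 ± 0.12 and 0.06 ± 0.25).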

How the data were processed

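The data are RNA-seq libraries of cultured mouse bone-marrow-derived macrophages. The authors deposited raw read counts per Ensembl gene identifier and library. Per the submitters' processing notes, the build was GRCm38 and the tools were featureCounts (Subread 1.6.3), TopHat2 2.0.12 and edgeR 3.28.1. No source used here gives the annotation or the strand and pair settings. Without strand, reads of a gene and an antisense neighbour cannot be told apart. Counts of 2 occurred 10280 times and counts of 1 6178 times in the 6 libraries, so counts may hold both mates of a fragment, and intervals and floors, which treat them as independent, cover counting error only. Libraries were grouped by their titles.

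All 21 libraries entered a fit with 1 term per group (R 4.3.3, edgeR 4.0.16, limma 3.58.1): filterByExpr, TMM scaling, glmQLFit and glmQLFTest, Benjamini-Hochberg adjustment over 15581 genes, calls below 0.05. The groups outside a contrast add to the estimate of the spread. SE is the absolute log2 fold change divided by the square root of F. The fit was tested on simulated data. The tested genes held 99.1% or more of each library's counts, and the common biological coefficient of variation was 22.8%. TMM factors were 0.831 to 0.897 in TNF_6h and 0.965 to 1.06 in Ctrl_0h. Symbols came from the reference tables: 14023 of the tested identifiers had one.

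The groups, gene lists and marker lists were chosen with earlier results of these data known. Named genes are the 12 raised and 12 lowered most (called in both fits, at least 10 CPM in the higher group, no overlap, ranked by the smaller change, predicted genes left out), the 6 with the largest gain and the 6 with the largest loss in mean CPM, the 3 largest changes and the most abundant gene of each list, and a set of TNF and macrophage genes. Other list members in the text were chosen after their values were seen. Promoters are RefSeq sequence of GRCm38.p6. Alternatives were DESeq2 1.42.0 size factors and Wald test, no filter, a strict filter, the 6 libraries alone, the replicate block and each library left out. Plain library totals, and leaving out both replicate 2 of Ctrl_0h and replicate 3 of TNF_6h, were added after seeing the data.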

Additional observations from a re-analysis of the deposited data

Results flagged for a closer look

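Of the 24 genes raised or lowered most in TNF_6h against Ctrl_0h, 22 had a change that differed between that comparison and IL_TNF_6h against IL_6h. This is by the edgeR test of the difference (adjusted p below 0.05), which called 18.4% of all genes. Nos2 and Esco2 were the exceptions. The genes were picked for a large change in TNF_6h against Ctrl_0h, which is one part of the difference. The choice tilts its sign and raises the number called, so 22 of 24 cannot be weighed against 18.4%. The comparisons also lie in different sets of libraries with controls of different age, which cannot be told apart from the effect of IL.

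For the raised genes the log2 difference, the effect with IL minus the effect without it, was -9.03 for Cfb, a complement factor, -8.98 for the acute-phase gene Saa3, -7.64 for Hp, haptoglobin, and -5.46 for C3. It was -7.36 for the chemokine Ccl5 and -4.47 for Fpr2, a formyl peptide receptor. It was -5.77 for H2-M2, -5.73 for Slfn1, -5.08 for Acod1, which makes itaconate, -4.65 for Gbp6 and -3.95 for Mmp14. Cfb, Hp and Slfn1 did not pass in the comparison with IL, with log2 fold changes of 0.98 ± 0.44, 1.06 ± 0.59 and 1.44 ± 0.75.

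For the lowered genes the difference was 6.42 for Ighm, 4.37 for the transporter Slco2b1, 4.14 for Dmpk, 2.98 for Nanos1, 3.21 for Tox2 and 5.08 for Hmgb3. For Tk1, Cenpm, Mxd3, Sapcd2 and Mns1 it was 4.88, 4.52, 4.75, 4.98 and 4.07. Of these 11 genes, Slco2b1, Nanos1, Dmpk and Tox2 also fell with IL.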

How the results depend on the processing

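For TNF_6h against Ctrl_0h, 6117 genes were called. The count lay between 5597 with a strict filter and 6560 with the DESeq2 Wald test over the other planned fits that kept all libraries, with 5753 in the fit of the 6 libraries alone. Leaving out each library in turn gave 4873 to 6090, and leaving out replicate 2 of Ctrl_0h and replicate 3 of TNF_6h together gave 4448. Plain library totals in place of TMM left 1918 genes raised, against 2928, and 4620 lowered, against 3189, and turned the medians of the early response, cholesterol synthesis, respiratory chain and oxidative stress lists from above to below 0. Without replicate 2 of Ctrl_0h the medians of the cholesterol synthesis, oxidative stress and respiratory chain lists turned to -0.07, -0.12 and -0.002, and that of the protease list to 0.68. No named gene that was called reversed under any of these settings. Il6, which was not called, turned from a log2 fold change of -0.89 to 2.91 without replicate 2 of Ctrl_0h. Sirpa, Ctsb and Tnfrsf1a lost their calls without replicate 2 of Ctrl_0h (log2 fold changes 0.26, 0.37 and 0.26), and the cause was not tested. Whether replicate numbers pair the libraries is not settled. Same-numbered deviations from the group means correlated at 0.233, -0.186 and -0.295, and the highest value, 0.383, joined replicate 3 of TNF_6h and replicate 2 of Ctrl_0h. As that Ctrl_0h library stands apart, it weighs on all these deviations, so the correlations cannot decide on pairing. With the replicate block 5892 genes were called, 2935 raised, and 153 of 154 named genes kept their side of the threshold. The labels give no batch. Few counts limit Ifnb1 and Il6.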
